A study of Mus musculus with 9 samples.

Results

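Oxidative phosphorylation is carried by complexes whose subunits are, for the most part, encoded in the nucleus. The genes described here were chosen by symbol from the count tables. They begin with Nduf followed by a, b, c, s or v and a digit, with Uqcr, with Cox followed by a digit from 4 to 8, or with Atp5, and Sdha, Sdhb, Sdhc and Sdhd were added. The rule found 84 of 23420 genes, of which 35 belong to complex I, 4 to complex II, 8 to complex III, 18 to complex IV and 15 to complex V. Another 4 (Ndufa4l2, Cox7a2l, Atp5s and Atp5sl) match by symbol and are kept apart, and Ndufa4 is placed in complex IV. None of the 13 symbols searched for the mitochondrially encoded subunits was found in the count tables, so they are not analysed here.

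The libraries came from ovaries of wild-type CD1 mouse embryos, taken at embryonic day 16 and kept in culture for 24 h in medium free of phenol red. The ovaries received recombinant human BMP2 at 50 ng/ml, estradiol-17β (E2) at 3.67 µM, or vehicle, with 3 libraries in each group. The labels give no number of ovaries or embryos behind a library and do not say whether the replicates were separate cultures, so p-values measure the spread between these libraries, which may be technical. Whole ovaries were used, and a lower count of a transcript can reflect fewer cells of a type or less RNA per cell, which cannot be told apart.

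The respiratory chain passes electrons from NADH, through complex I, or from succinate, through complex II, by way of coenzyme Q and complex III to cytochrome c and then to oxygen at complex IV. Complexes I, III and IV pump protons across the inner mitochondrial membrane, and complex V, the ATP synthase, uses the returning protons to make ATP. BMP2 is a secreted ligand of the TGF-β family that signals through SMAD factors, and E2 acts through estrogen receptors. Oocytes of the ovary are known to rely on mitochondrial oxidation of pyruvate supplied by surrounding somatic cells.

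Reads assigned to genes numbered 30418674 to 34320077 per library, and the 84 genes together took 0.973 to 0.977% of them in the BMP2 libraries, 0.979 to 0.982% in the E2 libraries and 1.01 to 1.03% in the vehicle libraries. Of the 84 genes, 82 passed the filter on low counts, among 16360 genes that did, and entered the test. The other 2 are Cox6a2 and Cox8b, isoforms of complex IV subunits known from heart and skeletal muscle. Cox6a2 had 0.264, 0.328 and 0.261 CPM (the count scaled to a common library size) in the BMP2 libraries, 0.231, 0.1905 and 0.126 CPM in the E2 libraries and 0.292, 0.259 and 0.525 CPM in the vehicle libraries. Cox8b had at most 4 reads in any library.

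Per kilobase of exon, the median levels in vehicle libraries differed between complexes, and levels differed more widely among the genes of a complex. The median level was 70.1 CPM per kilobase of exon (RPKM) in complex I, 112 RPKM in complex II, 148 RPKM in complex III, 141 RPKM over the 16 tested genes of complex IV, and 212 RPKM in complex V. The highest level was that of Atp5b, the catalytic beta subunit of the ATP synthase, at 417 ± 5.80 RPKM. Cox4i1, the widely expressed isoform of the largest nuclear subunit of complex IV, stood at 373 ± 13.4 RPKM (SD, n = 3 each). Its paralog Cox4i2, an isoform known from lung and from hypoxia, stood at 1.06 ± 0.224 RPKM. The isoforms known from testis or muscle that passed the filter (Cox6b2, Cox7a1, Cox7b2 and Cox8c) lay between 1.25 and 13.5 RPKM, below every widely expressed subunit of complex IV. Of the 3 genes for the proton-carrying c-ring of the ATP synthase, which encode the same mature protein, Atp5g3 and Atp5g2 had 307 and 259.5 RPKM and Atp5g1 had 19.9 RPKM. For Atp5g1, 14.4% of the transcript is matched by 17 other genes at 97% identity or more. Ndufs5 had a low value, 2.76 RPKM. A near copy of the gene elsewhere in the genome matches 46.9% of its transcript at 97% identity or more. Reads that aligned to several places were listed apart from the gene counts. Whether this lowered the values of Ndufs5 and Atp5g1 was not tested.

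**Figure D1:**
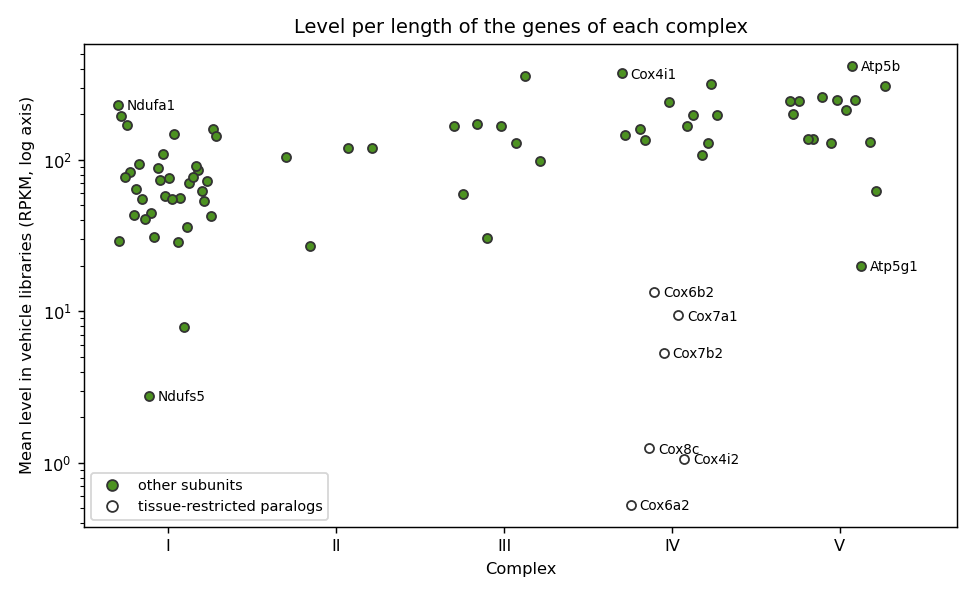
Mean level in the 3 vehicle libraries, in RPKM on a log axis, of each gene of complexes I to V; each point is a gene, and open points are isoforms known from particular tissues. The open points of complex IV lie below its filled points, from Cox6b2 downwards, and Cox8b, at or near 0, is left out.

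Many of these genes were slightly lower with BMP2, and 1 was higher. With an adjusted p under 0.05 in edgeR's quasi-likelihood test as the call, 36 of 82 were lower and 1 was higher in BMP2 than in vehicle libraries, where 6.85% of all 16360 genes were lower and 6.84% were higher. The median log2 fold change of the 82 genes was -0.081, against -0.0015 over all genes, and 76 of the 82 lay below 0. In 50 of the 82 each BMP2 library was below every vehicle library, and in 2 each was above; over all genes these shares were 14% and 14.1%.

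With E2 about as many genes were lower and a few more were higher. In E2 libraries 37 of 82 were lower and 6 were higher than in vehicle, where 16.5% of all genes were lower and 15.8% were higher. The median log2 fold change was -0.070, against -0.0026 over all genes, and 68 of the 82 lay below 0. Each E2 library was below every vehicle library in 41 genes and above in 5, where the shares over all genes were 20.9% and 20.4%. Both comparisons use the same 3 vehicle libraries, so their values stand side by side and are not independent of each other.

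The size of these differences was small in every complex. Summed over the 84 genes, the level was 9690.0, 9720.2 and 9740.0 CPM in BMP2 libraries, 9841, 9854 and 9826 CPM in E2 libraries and 10211, 10282 and 10104 CPM in vehicle libraries. The BMP2 and the E2 libraries were all below the lowest vehicle library, by 4.73% and 3.52% in the means. Complex IV showed the largest drop in its sum, 7.25% with BMP2 and 7.83% with E2. Complex III was lower by 5.501% with BMP2 and 4.71% with E2, and complex I by 4.63% with BMP2 and 4.32% with E2. The sum of complex V was 4.21% lower with BMP2 and 1.30% lower with E2, and in both groups every library was below every vehicle library. Complex II was the exception, at 669, 673 and 663 CPM with BMP2, 685, 695 and 679 CPM with E2 and 672, 675 and 671 CPM with vehicle: the BMP2 libraries overlapped vehicle and the E2 libraries were all above it.

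**Figure D2:**
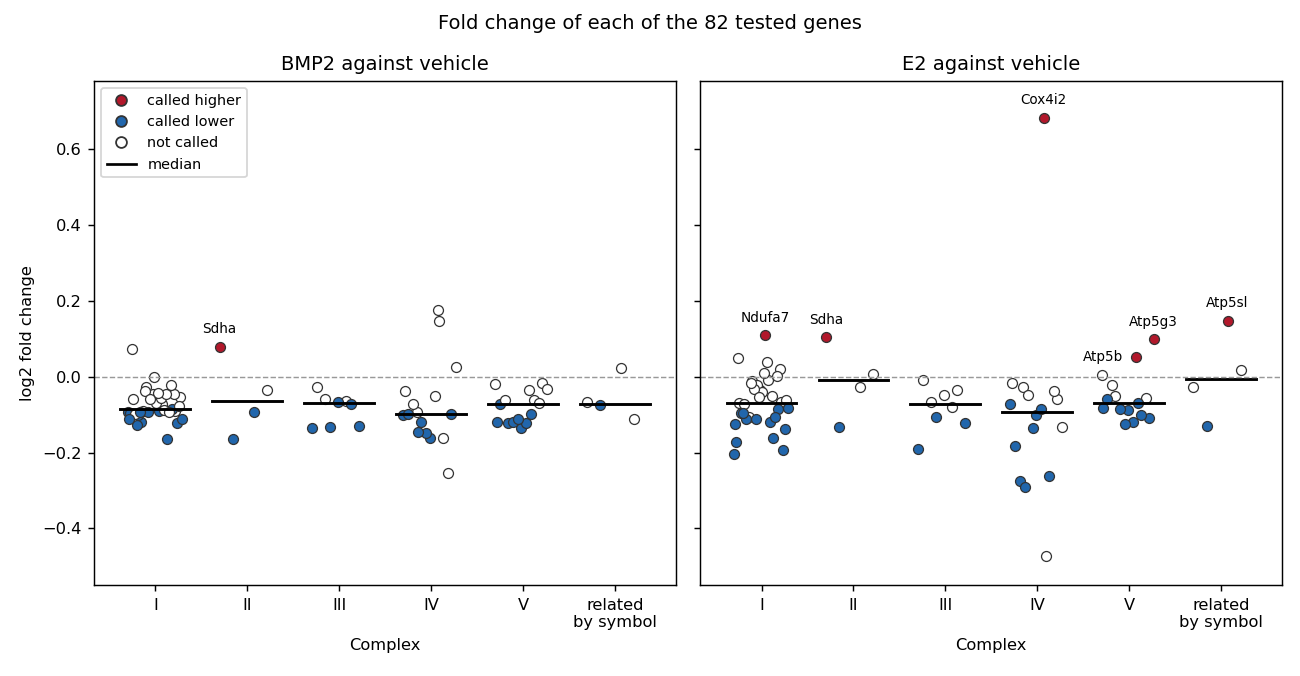
log2 fold change of each of the 82 tested genes by complex, for BMP2 against vehicle on the left and E2 against vehicle on the right; filled points passed the test, red for higher and blue for lower, and bars are medians. The medians lie below 0 in all complexes, and the genes called higher are Sdha with BMP2 and the 6 labelled genes with E2.

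**Figure D3:**
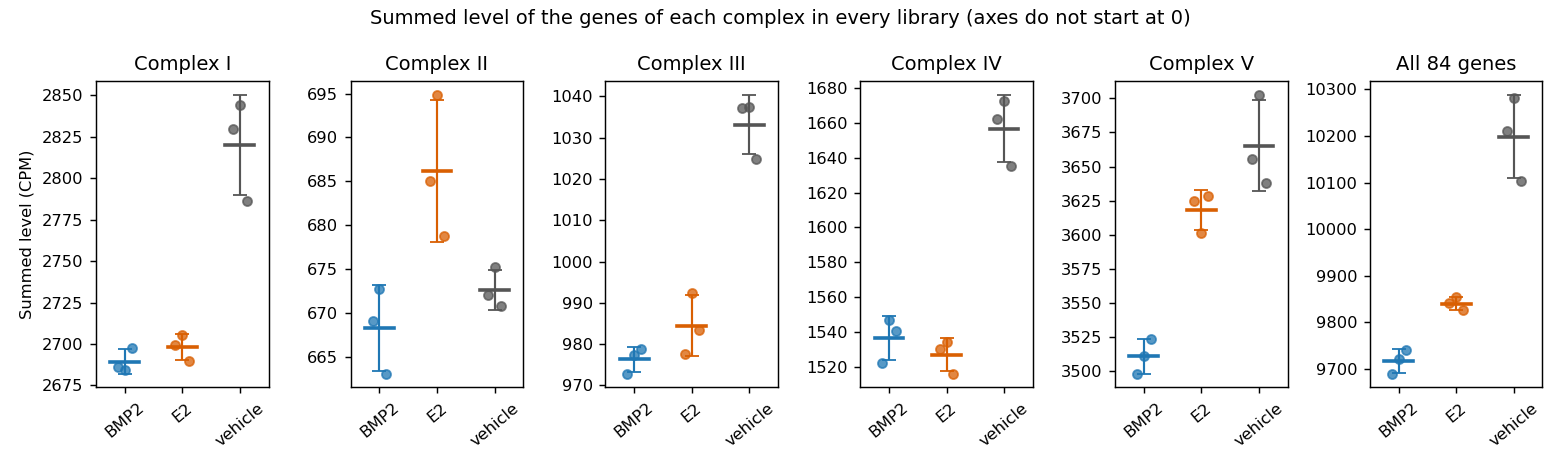
Summed level in CPM of the genes of each complex and of all 84 genes, in every library of the BMP2, E2 and vehicle groups; points are libraries, bars are means with SD (n = 3), and the axes do not start at 0. Vehicle libraries stand above the others in complexes I, III, IV and V, while in complex II the E2 libraries are highest.

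Since the differences are small, the calls were repeated with each library left out in turn. Of the 36 genes lower with BMP2, 19 passed the test in every such fit, and these also passed in DESeq2, with the trend on length and GC content removed and under the other settings run. They were Atp5c1, Atp5e, Atp5f1, Atp5g2, Atp5h, Atp5l, Atp5o, Cox4i1, Cox6a1, Cox6c, Cox7c, Ndufa3, Ndufa4, Ndufb11, Ndufb9, Sdhc, Uqcr10, Uqcrc1 and Uqcrq. Sdha, the gene higher with BMP2, passed in all of them too. Of the 37 genes lower with E2, 18 passed in every fit that left out a library and 16 of those under all settings, namely Atp5h, Atp5o, Cox6b1, Cox7a2l, Cox7b, Cox7c, Ndufa1, Ndufa3, Ndufa4, Ndufa9, Ndufb11, Ndufb4, Ndufv2, Sdhc, Uqcr10 and Uqcrc1. Of the 6 genes higher with E2, Atp5b, Atp5g3 and Sdha did. For the other called genes, the fits that missed the threshold are given where the gene is described.

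Markers of cell types moved alongside these changes. The germ cell gene Ddx4 averaged 192 ± 0.603 CPM with BMP2, 189 ± 1.55 CPM with E2 and 177 ± 2.74 CPM with vehicle, and the pregranulosa gene Foxl2 averaged 65.3 ± 0.578 CPM with BMP2, 59.7 ± 2.54 CPM with E2 and 56.5 ± 1.26 CPM with vehicle (SD, n = 3 each). The tissue thus carries the markers of its label. The shares to set beside the counts below are 6.84% higher and 6.85% lower for BMP2, and 15.8% higher and 16.5% lower for E2, over all genes tested. Of 5 germ cell markers, 3 were higher and none lower with each treatment, and their sum was 932 to 959 CPM with BMP2, 947 to 956 CPM with E2 and 890.1 to 948 CPM with vehicle. All 5 surface epithelium markers were lower with each, and their sum was 526 to 538 CPM with BMP2, 412 to 419 CPM with E2 and 598 to 623 CPM with vehicle. Of 4 stroma markers, 0 were higher and 2 lower with BMP2 and 1 higher and 3 lower with E2. Their sum was 632 to 642 CPM with BMP2, 537 to 546 CPM with E2 and 648 to 674 CPM with vehicle. The BMP2 calls in stroma were those of Col1a1 and Tcf21. Both ended in DESeq2 (adjusted p = 0.3235 and 0.142), and that of Tcf21 also with median-ratio scaling (adjusted p = 0.0512). Of 5 pregranulosa markers, 2 were higher and 1 lower with BMP2 and 1 higher and 2 lower with E2. Their sum was 1870.0 to 1879 CPM with BMP2, 1631 to 1650.0 CPM with E2 and 1831 to 1900.0 CPM with vehicle. The BMP2 call of Kitl, a pregranulosa marker, ended at adjusted p = 0.07795 without BMP2 replicate 3, 0.0523 without vehicle replicate 1 and 0.224 without vehicle replicate 2. Of 4 muscle markers, 0 were higher and 2 lower with BMP2 and 1 higher and 0 lower with E2. Their sum was 212 to 214 CPM with BMP2, 380.3 to 393 CPM with E2 and 239 to 242 CPM with vehicle. Of 4 tested erythroid markers, 2 were higher and 0 lower with BMP2 and 4 higher and 0 lower with E2. The sum over all 7 erythroid markers found was 24.5 to 25.2 CPM with BMP2, 29.5 to 33.1 CPM with E2 and 18.8 to 20.5 CPM with vehicle. The alpha-globin genes Hba-a1 and Hba-a2 and the beta-globin gene Hbb-b2 are in this sum, though they did not pass the filter on low counts. With BMP2, the numbers higher and lower were 1 and 0 of 4 endothelial markers, 0 and 0 of 5 macrophage markers, 0 and 1 of 3 mesonephric markers, 0 and 0 of 4 Sertoli cell markers, and 1 and 0 of 3 liver or heart markers. Of these calls, that of the endothelial gene Cdh5 ended at adjusted p = 0.0597 without vehicle replicate 1. That of the heart gene Tnni3 ended at adjusted p = 0.139 in DESeq2. With E2, the numbers higher and lower were 3 and 1 of 4 endothelial markers, 0 and 3 of 5 macrophage markers, 0 and 0 of 3 mesonephric markers, 0 and 1 of 4 Sertoli cell markers, and 1 and 0 of 3 liver or heart markers. Macrophage markers summed to 55.3 to 57.9 CPM with BMP2, 52.4 to 53.1 CPM with E2 and 58.3 to 61.6 CPM with vehicle, endothelial markers to 189 to 194 CPM with BMP2, 182 to 193 CPM with E2 and 189 to 194 CPM with vehicle, and the last 3 lists to at most 13.2 CPM each in any library. The part of cell composition in the changes of the respiratory chain genes was not tested.

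The genes are short, with a median exon length of 952.5 bases against 3205.5 bases over all genes tested, and shorter genes had lower signed log2 fold changes, both among them (Spearman's rho with length 0.22 for BMP2 and 0.28 for E2 over the 82 genes) and among all genes (0.12 for BMP2 and 0.13 for E2), given as a description across genes. With the trend on length and GC content removed, 31 were lower and 2 higher with BMP2 (median log2 fold change -0.056), where 8.03% of all genes were lower and 7.15% higher in that fit. With E2, 31 were lower and 9 higher (median -0.046), where 18.5% of all genes were lower and 13.9% higher in that fit. The median over all genes there was -0.0030 with BMP2 and -0.011 with E2. Of the 31 lower genes, 28 with BMP2 and 26 with E2 were among the 36 and 37 called lower in the main fit. The part of transcript length in the result was not tested beyond this fit. Some counts are less certain: over 20% of the transcript of Atp5g2, Atp5h, Atp5j, Atp5o, Cox4i1, Cox5b, Cox7c, Ndufa12, Ndufa13, Ndufb4, Ndufb6, Ndufb9, Ndufs3, Ndufs5, Uqcr11, Uqcrb and Uqcrc2 is matched by another gene. Over 10% of the exon bases of Atp5f1, Atp5j, Atp5l, Atp5o, Cox5a, Cox6a2, Ndufa13, Ndufa2, Ndufb11, Ndufb5, Ndufb6, Ndufb9 and Uqcrc2 overlap those of another gene. Whether reads were counted by strand is not given in the sources used here.

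Promoter sequence was read for 69 of the 84 genes, as 75 windows of 250 bases before and 50 bases after an annotated start (RefSeq, build GRCm38.p6, written 5′ to 3′ on the gene's strand). Factors known to act at nuclear genes of the respiratory chain include NRF1, ETS factors such as GABPA, YY1, the ERR receptors and SP1. The NRF1 motif GCGCATGCG, searched on both strands, was in 10.7% of the 75 windows and in 1.75% of all 32851 windows of this length. The YY1 motif AAGATGGCG was in 12% against 1.40%, the ETS motif CCGGAAGT in 6.67% against 3.89%, the ERR motif TCAAGGTCA in 2.67% against 0.423%, and the SP1 motif GGGGCGGGG in 16% against 11.4%. The NRF1 motif is nearly its own reverse complement, so a site can be read on both strands 1 base apart. The windows of these genes hold 57.5% G and C against 53.8% over all. NRF1 motifs were in the windows of 7 of the 30 genes lower with BMP2 that have a window, and of 1 of the 37 that did not pass. With E2 they were in 6 of 33 lower genes and 2 of 30 that did not pass. YY1 motifs were in 1 of 30 lower genes and 7 of 37 that did not pass with BMP2, and in 2 of 33 lower genes and 5 of 30 that did not pass with E2. These counts are small, and a match describes letters in a window and no binding. Uqcrc1 and Atp5g2 are shown as genes lower with both treatments that hold an NRF1 motif, and Atp5g3 as a gene higher with E2, whose window holds an ERR motif. Capitals mark the motifs, and CCCCGCCCC in Atp5g2 is the SP1 motif on the other strand, as is TGACCTTGA for ERR in Atp5g3.
Uqcrc1 (chr9:108936398-108936697, plus strand): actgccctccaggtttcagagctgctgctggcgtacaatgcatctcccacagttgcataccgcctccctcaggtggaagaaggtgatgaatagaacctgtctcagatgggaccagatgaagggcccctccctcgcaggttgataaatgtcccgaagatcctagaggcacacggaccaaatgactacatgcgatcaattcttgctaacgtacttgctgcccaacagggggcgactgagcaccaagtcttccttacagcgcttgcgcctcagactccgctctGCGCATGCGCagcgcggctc
Atp5g2 (chr15:102670998-102671297, minus strand): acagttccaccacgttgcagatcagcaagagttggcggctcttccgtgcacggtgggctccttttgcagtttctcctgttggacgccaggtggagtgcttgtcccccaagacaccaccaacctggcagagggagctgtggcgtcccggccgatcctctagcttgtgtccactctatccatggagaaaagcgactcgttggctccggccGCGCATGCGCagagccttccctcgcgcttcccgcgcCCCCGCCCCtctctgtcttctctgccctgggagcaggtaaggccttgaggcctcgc
Atp5g3 (chr2:73911277-73911576, minus strand): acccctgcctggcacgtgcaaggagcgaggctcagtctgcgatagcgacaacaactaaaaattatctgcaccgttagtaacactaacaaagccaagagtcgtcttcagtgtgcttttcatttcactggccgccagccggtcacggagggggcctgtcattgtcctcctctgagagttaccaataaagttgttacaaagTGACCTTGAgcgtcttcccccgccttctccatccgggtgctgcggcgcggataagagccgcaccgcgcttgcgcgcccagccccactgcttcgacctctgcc

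Complex I, the NADH dehydrogenase, had 13 of its 35 genes lower and 0 higher with BMP2, and 15 lower and 1 higher with E2. Over all genes, 6.85% were lower and 6.84% higher with BMP2, and 16.5% and 15.8% with E2. Its median log2 fold change was -0.084 with BMP2 and -0.069 with E2. The lower genes were mostly accessory subunits, which surround and stabilise the catalytic core: 12 of 28 accessory genes and 1 of 7 core genes were lower with BMP2, and 13 of 28 and 2 of 7 with E2. The difference between these shares was not tested.

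Ndufa1, a small accessory subunit of the membrane arm, had 90.8, 90.1 and 91.8 CPM in BMP2 libraries, 85.8, 83.6 and 83.01 CPM in E2 libraries and 98.9, 98.6 and 93.4 CPM in vehicle libraries. The E2 libraries were lowest, the BMP2 libraries lay between, and no group overlapped another. It was 13.2% lower with E2 (log2 fold change -0.20 ± 0.029, adjusted p = 1.97e-09) and 6.26% lower with BMP2 (log2 fold change -0.093 ± 0.029, adjusted p = 0.0159). The BMP2 call ended in several fits, with adjusted p = 0.0546 in DESeq2, 0.34 with the length and GC trend removed, 0.0566 without BMP2 replicate 1, 0.0665 without BMP2 replicate 2, 0.118 without vehicle replicate 1 and 0.0851 without vehicle replicate 2. Ndufb11, another membrane-arm accessory subunit, had the same order, with 167, 161 and 166 CPM in BMP2 libraries, 157, 155 and 156 CPM in E2 libraries and 179, 176 and 173 CPM in vehicle libraries. Its log2 fold change was -0.17 ± 0.023 with E2 (adjusted p = 1.56e-10) and -0.10 ± 0.023 with BMP2 (adjusted p = 9.98e-04).

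Ndufb4 was lower with E2 (log2 fold change -0.19 ± 0.033, adjusted p = 5.58e-07) and with BMP2 (log2 fold change -0.12 ± 0.033, adjusted p = 0.0046), where the call ended at adjusted p = 0.0697 without BMP2 replicate 2. Ndufb9 (log2 fold change -0.11 ± 0.028, adjusted p = 0.00245) and Ndufa3 (log2 fold change -0.16 ± 0.042, adjusted p = 0.00302) were lower with BMP2. Ndufa3 fell by as much with E2 (log2 fold change -0.16 ± 0.043, adjusted p = 0.00131). A near copy, Ndufb4c, matches 40.2% of the transcript of Ndufb4. For Ndufb9, 28.7% of the transcript is matched by Gm49356, a gene annotated at the same place on the same strand.

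Among core subunits, Ndufv2, which carries an iron-sulfur cluster beside the NADH site, was lower with E2 (log2 fold change -0.11 ± 0.024, adjusted p = 5.77e-05). With BMP2 it had log2 fold change -0.059 ± 0.024, short of the threshold (adjusted p = 0.0803), though it passed without BMP2 replicate 3 (log2 fold change -0.081, adjusted p = 0.0302). Ndufs8, another iron-sulfur subunit, was lower with BMP2 (log2 fold change -0.13 ± 0.036, adjusted p = 0.00749) and E2 (log2 fold change -0.10 ± 0.036, adjusted p = 0.0311). The BMP2 call of Ndufs8 ended at adjusted p = 0.0571 without BMP2 replicate 2 and 0.127 without vehicle replicate 2, and its E2 call at adjusted p = 0.0865 in DESeq2, 0.345 with the length and GC trend removed, 0.279 without vehicle replicate 2, 0.0879 without E2 replicate 1 and 0.115 without E2 replicate 3. Ndufs3 was the core gene above 0 with both, at log2 fold changes of 0.072 ± 0.030 with BMP2 and 0.049 ± 0.030 with E2, and 75.7% of its transcript is matched by the near copy Gm12251. These missed the threshold and passed with the trend on length and GC content removed (log2 fold change 0.10, adjusted p = 0.00719 with BMP2 and log2 fold change 0.088, adjusted p = 0.0106 with E2).

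The other accessory subunits called lower with BMP2 were Ndufa11, Ndufa8, Ndufa9, Ndufb8, Ndufc2 and Ndufv3, at log2 fold changes of -0.12 to -0.084, and none kept its call in every fit. Ndufa11 (log2 fold change -0.12, adjusted p = 0.0107) missed the threshold at adjusted p = 0.0528 without BMP2 replicate 1, 0.0703 without BMP2 replicate 3 and 0.0607 without vehicle replicate 1. Ndufa8 (log2 fold change -0.10, adjusted p = 0.0434) missed the threshold at adjusted p = 0.13 in DESeq2, 0.0548 with no filter on low counts, 0.0535 with the 2 groups compared alone, 0.183 with the length and GC trend removed, 0.255 without BMP2 replicate 2, 0.131 without BMP2 replicate 3, 0.101 without vehicle replicate 1 and 0.2 without vehicle replicate 2. Ndufa9 (log2 fold change -0.084, adjusted p = 0.0129) missed the threshold at adjusted p = 0.107 without BMP2 replicate 3, 0.0523 without vehicle replicate 1 and 0.0757 without vehicle replicate 2. These 3 calls shared the loss without BMP2 replicate 3 and without vehicle replicate 1. Ndufb8 (log2 fold change -0.092, adjusted p = 0.0439) missed the threshold at adjusted p = 0.154 in DESeq2, 0.276 without BMP2 replicate 1, 0.11 without BMP2 replicate 3, 0.245 without vehicle replicate 1 and 0.101 without vehicle replicate 2. Ndufc2 (log2 fold change -0.092, adjusted p = 0.0431) missed the threshold at adjusted p = 0.132 in DESeq2, 0.0532 with no filter on low counts, 0.283 with the length and GC trend removed, 0.0939 without BMP2 replicate 1, 0.247 without BMP2 replicate 2, 0.197 without vehicle replicate 1 and 0.0978 without vehicle replicate 3. Ndufv3 (log2 fold change -0.11, adjusted p = 0.0204) missed the threshold at adjusted p = 0.0954 in DESeq2, 0.0727 without BMP2 replicate 1, 0.161 without BMP2 replicate 3, 0.0684 without vehicle replicate 1 and 0.167 without vehicle replicate 2. These 3 missed it in DESeq2.

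With E2 the other accessory subunits called lower were Ndufa11, Ndufa9, Ndufb2, Ndufb6, Ndufb7, Ndufb9, Ndufc2, Ndufs6 and Ndufv3, at log2 fold changes of -0.14 to -0.082. Ndufa9 (log2 fold change -0.085 ± 0.026, adjusted p = 0.00535) kept its call under every setting run, and the rest did not. Ndufa11 (log2 fold change -0.11, adjusted p = 0.0107) missed the threshold at adjusted p = 0.451 with the length and GC trend removed, 0.0502 without vehicle replicate 1 and 0.115 without E2 replicate 1. Ndufb2 (log2 fold change -0.12, adjusted p = 0.0296) missed the threshold at adjusted p = 0.0798 in DESeq2, 0.14 without vehicle replicate 3, 0.139 without E2 replicate 1 and 0.0746 without E2 replicate 2. Ndufb6 (log2 fold change -0.10, adjusted p = 0.0317) missed the threshold at adjusted p = 0.0848 in DESeq2, 0.0912 with the length and GC trend removed, 0.0971 without vehicle replicate 2, 0.165 without vehicle replicate 3, 0.111 without E2 replicate 1 and 0.0887 without E2 replicate 3. These 3 calls shared the loss without E2 replicate 1. Ndufb7 (log2 fold change -0.11, adjusted p = 0.0324) missed the threshold at adjusted p = 0.114 in DESeq2, 0.239 without vehicle replicate 2 and 0.257 without E2 replicate 3. Ndufb9 (log2 fold change -0.082, adjusted p = 0.0191) missed the threshold at adjusted p = 0.0568 in DESeq2, 0.711 with the length and GC trend removed, 0.103 without vehicle replicate 2, 0.0593 without vehicle replicate 3 and 0.142 without E2 replicate 1. Both missed it in DESeq2 and without vehicle replicate 2. Ndufc2 (log2 fold change -0.11, adjusted p = 0.00426) missed the threshold at adjusted p = 0.0673 without E2 replicate 1. Ndufs6 (log2 fold change -0.14, adjusted p = 0.00955) missed the threshold at adjusted p = 0.0741 without E2 replicate 1. Ndufv3 (log2 fold change -0.12, adjusted p = 0.00388) missed the threshold at adjusted p = 0.0578 without vehicle replicate 2 and 0.0979 without E2 replicate 3. These 3 missed it only in fits with a library left out.

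Ndufa7, an accessory subunit of the matrix arm, was the gene of complex I that went the other way with E2. It had 75.1, 74.4 and 72.7 CPM in BMP2 libraries, 88.2, 85.9 and 80.8 CPM in E2 libraries and 82.02, 75.9 and 78.3 CPM in vehicle libraries. The BMP2 libraries were all below vehicle, while the E2 range overlapped the vehicle range. It was higher with E2 (log2 fold change 0.11 ± 0.031, adjusted p = 0.00347) and lower with BMP2 (log2 fold change -0.089 ± 0.032, adjusted p = 0.0423). The E2 call ended at adjusted p = 0.0637 without E2 replicate 1, and the BMP2 call at adjusted p = 0.151 in DESeq2, 0.314 with the length and GC trend removed, 0.0626 without BMP2 replicate 1, 0.0799 without BMP2 replicate 2, 0.185 without BMP2 replicate 3 and 0.349 without vehicle replicate 1.

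Complex II, succinate dehydrogenase, links the citrate cycle to the respiratory chain and has no mitochondrially encoded subunit. Its 4 genes did not move together. Sdha (chr13:74322254-74350280, minus strand, GRCm38), the flavoprotein that oxidises succinate, had 319, 326 and 319 CPM in BMP2 libraries, 324, 327 and 331 CPM in E2 libraries and 309.7, 304 and 299 CPM in vehicle libraries. Both treated groups stood above every vehicle library. It was higher with BMP2 (log2 fold change 0.079 ± 0.020, adjusted p = 0.00219) and with E2 (log2 fold change 0.10 ± 0.020, adjusted p = 6.61e-06), and it was the single gene of the 82 called higher with BMP2.

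Sdhc, a membrane anchor that binds haem, moved the opposite way. It had 78.5, 78.01 and 74.1 CPM in BMP2 libraries, 78.1, 80.7 and 77.04 CPM in E2 libraries and 83.3, 85.8 and 89.4 CPM in vehicle libraries. All treated libraries were below all vehicle libraries, and it was lower with BMP2 (log2 fold change -0.16 ± 0.031, adjusted p = 1.32e-05) and with E2 (log2 fold change -0.13 ± 0.031, adjusted p = 2.58e-04). Sdhb, the iron-sulfur subunit, was lower with BMP2 (log2 fold change -0.094 ± 0.025, adjusted p = 0.00452), a call lost without vehicle replicate 2 (log2 fold change -0.076, adjusted p = 0.0537). With E2 it had log2 fold change -0.026 ± 0.026 (adjusted p = 0.476). Sdhd, the other anchor, had log2 fold changes of -0.035 ± 0.024 with BMP2 and 0.0082 ± 0.024 with E2, neither past the threshold.

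In complex III, the cytochrome bc1 complex, 5 of 8 genes were lower with BMP2 and 3 with E2, and none was higher. The shares lower over all genes were 6.85% with BMP2 and 16.5% with E2. Uqcrc1, a core protein of the matrix side whose promoter window is printed above, had 148, 149.9 and 146 CPM in BMP2 libraries, 148, 152 and 146 CPM in E2 libraries and 165, 164 and 157 CPM in vehicle libraries. Both treated groups lay below all vehicle libraries, and the change was -0.13 ± 0.024 on the log2 scale with BMP2 (adjusted p = 8.62e-06) and -0.12 ± 0.024 with E2 (adjusted p = 9.70e-06). The small subunits Uqcr10 (log2 fold change -0.13 with BMP2 and -0.19 with E2) and Uqcrq (-0.13 with BMP2 and -0.11 with E2) were lower with both. For Uqcrq the call with E2 was lost without vehicle replicate 3 (log2 fold change -0.088, adjusted p = 0.0837). Uqcrc2, the other core protein, was lower with BMP2 (log2 fold change -0.067 ± 0.020, adjusted p = 0.0113), a call that ended at adjusted p = 0.0562 without BMP2 replicate 1 and 0.0724 without BMP2 replicate 2. With E2 it had log2 fold change -0.047 ± 0.020, adjusted p = 0.0603, and passed without vehicle replicate 1 (log2 fold change -0.058, adjusted p = 0.0439), with a replicate block (log2 fold change -0.047, adjusted p = 0.0356) and with the length and GC trend removed (log2 fold change -0.056, adjusted p = 0.00699). Uqcrh, the hinge protein that binds near cytochrome c1, was lower with BMP2 (log2 fold change -0.072 ± 0.022, adjusted p = 0.0156), a call that ended at adjusted p = 0.263 with the length and GC trend removed, 0.0515 without BMP2 replicate 1, 0.0914 without BMP2 replicate 2, 0.131 without vehicle replicate 1 and 0.0556 without vehicle replicate 2. Uqcrfs1, the Rieske iron-sulfur protein, differed by -0.026 ± 0.031 with BMP2 and -0.0087 ± 0.031 with E2, within the spread between libraries.

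In complex IV, cytochrome c oxidase, several subunits fell with both treatments. Of its 11 widely expressed genes, 7 were lower with BMP2 and 7 with E2, and none was higher with either. The shares lower over all genes were 6.85% with BMP2 and 16.5% with E2. Ndufa4 (chr6:11900292-11907497, minus strand, GRCm38), first described with complex I and now known as a subunit of complex IV, had 174, 181 and 178 CPM in BMP2 libraries, 160.1, 165 and 158 CPM in E2 libraries and 193, 197 and 200.4 CPM in vehicle libraries. The 3 groups did not overlap, with E2 lowest and BMP2 between. Ndufa4 was 18.2% lower with E2 (log2 fold change -0.29 ± 0.023, adjusted p = 2.64e-23) and 9.62% lower with BMP2 (log2 fold change -0.15 ± 0.022, adjusted p = 8.41e-08). With E2 this was the largest fall among the genes that passed the test.

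Cox7b, a small subunit of the membrane part, was the other steep fall with E2. It had 101, 102 and 104 CPM in BMP2 libraries, 87.8, 88.9 and 90.1 CPM in E2 libraries and 111, 109 and 102 CPM in vehicle libraries. The E2 libraries lay below all others, while the BMP2 and vehicle ranges overlapped. It was 17.3% lower with E2 (log2 fold change -0.27 ± 0.029, adjusted p = 2.19e-15). With BMP2 its log2 fold change of -0.073 ± 0.028 missed the threshold (adjusted p = 0.0666). It passed without vehicle replicate 3 (log2 fold change -0.11, adjusted p = 0.00489) or with a replicate block (log2 fold change -0.073, adjusted p = 0.0447). Cox6b1, a subunit that faces the intermembrane space, was lower with E2 (log2 fold change -0.18 ± 0.027, adjusted p = 5.77e-09) and with BMP2 (log2 fold change -0.10 ± 0.027, adjusted p = 0.00483). The BMP2 call was lost without vehicle replicate 2 (log2 fold change -0.071, adjusted p = 0.098).

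Other subunits fell with BMP2 as much as with E2, or more. Cox6a1, the isoform of subunit 6a found in most tissues, had 123, 125 and 120.0 CPM in BMP2 libraries, 127, 133 and 123 CPM in E2 libraries and 139, 141 and 132 CPM in vehicle libraries. The BMP2 libraries were all below vehicle and the E2 libraries overlapped it. The log2 fold change was -0.16 ± 0.026 with BMP2 (adjusted p = 4.31e-07) and -0.10 ± 0.026 with E2 (adjusted p = 0.00105). Cox5b, a zinc-binding subunit of the matrix side, was lower with BMP2 (log2 fold change -0.10 ± 0.027, adjusted p = 0.00573), a call that ended at adjusted p = 0.0649 with the length and GC trend removed, 0.0739 without BMP2 replicate 1 and 0.103 without vehicle replicate 1. Cox7c fell by 9.72% with BMP2 (adjusted p = 2.53e-07) and by 8.99% with E2 (adjusted p = 6.61e-07). Cox6c was lower with BMP2 (log2 fold change -0.12 ± 0.022, adjusted p = 8.21e-06) and had log2 fold change -0.048 ± 0.022, adjusted p = 0.0836 with E2, where it passed with the length and GC trend removed (log2 fold change -0.074, adjusted p = 9.32e-04). Cox4i1 was lower with BMP2 (log2 fold change -0.10 ± 0.022, adjusted p = 2.35e-04) and with E2 (log2 fold change -0.073 ± 0.022, adjusted p = 0.00578). The E2 call of Cox4i1 was lost without vehicle replicate 1 (log2 fold change -0.055, adjusted p = 0.0888), E2 replicate 2 (log2 fold change -0.053, adjusted p = 0.104) or E2 replicate 3 (log2 fold change -0.060, adjusted p = 0.0655).

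With the trend on length and GC content removed, 7 of the E2 calls in complexes IV and V ended. They were those of Atp5d, Atp5k, Cox6b2 and Cox7a2, given with each gene, and of Cox4i1 (log2 fold change 0.0050, adjusted p = 0.875), Cox6a1 (log2 fold change -0.022, adjusted p = 0.506) and Atp5g2 (log2 fold change -0.017, adjusted p = 0.6). Cox8a, a small subunit of most tissues, had log2 fold change -0.015 ± 0.030, adjusted p = 0.748 with E2 and became higher in that fit (log2 fold change 0.073, adjusted p = 0.0359). With BMP2 the call of Cox6b1 ended there (log2 fold change -0.056, adjusted p = 0.112). Cox7a2, the isoform of subunit 7a found in most tissues, had log2 fold changes of -0.051 with BMP2, not past the threshold, and -0.085 with E2 (adjusted p = 0.0143), a call that ended at adjusted p = 0.0605 in DESeq2, 0.147 with the length and GC trend removed, 0.0612 without vehicle replicate 1, 0.185 without vehicle replicate 2, 0.0792 without E2 replicate 2 and 0.0547 without E2 replicate 3. With BMP2, Cox7a2 passed without vehicle replicate 3 (log2 fold change -0.085, adjusted p = 0.0357).

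The isoforms known from particular tissues were at low levels. Cox4i2 (chr2:152754173-152765037, plus strand, GRCm38) had 27, 36 and 33 reads in the BMP2 libraries, 47, 32 and 46 reads in the E2 libraries and 22, 27 and 32 reads in the vehicle libraries. The E2 libraries lay above all vehicle libraries after scaling, and the gene was higher with E2 (log2 fold change 0.68 ± 0.24, adjusted p = 0.0194). That call was lost in DESeq2 (adjusted p = 0.0677) and without vehicle replicate 1 (log2 fold change 0.52, adjusted p = 0.14), E2 replicate 1 (log2 fold change 0.57, adjusted p = 0.112) or E2 replicate 3 (log2 fold change 0.62, adjusted p = 0.0808). With BMP2 its log2 fold change was 0.18 ± 0.25 (adjusted p = 0.729).

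Cox6b2, the testis isoform of subunit 6b, was lower with E2 (log2 fold change -0.26 ± 0.083, adjusted p = 0.00922) and had log2 fold change -0.16 ± 0.081, adjusted p = 0.191 with BMP2. Without E2 replicate 2 (log2 fold change -0.18, adjusted p = 0.144) or replicate 3 (log2 fold change -0.23, adjusted p = 0.0575), and with the length and GC trend removed (log2 fold change -0.19, adjusted p = 0.0691), the E2 call ended. Cox7a1, Cox7b2 and Cox8c passed no test in either comparison. Their log2 fold changes with BMP2 were 0.025 ± 0.11, -0.25 ± 0.15 and 0.15 ± 0.31. With E2 they were -0.13 ± 0.11, -0.037 ± 0.15 and -0.47 ± 0.35. Differences of this size were not detectable at these counts.

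In complex V, most changes were falls. With BMP2 8 of its 15 genes were lower and 0 higher, where 6.85% of all genes were lower, and all 15 log2 fold changes lay below 0. With E2 9 were lower and 2 higher, the higher ones being Atp5b and Atp5g3, where 16.5% of all genes were lower and 15.8% higher. Atp5b had 782, 778 and 779 CPM in BMP2 libraries, 826, 829 and 829 CPM in E2 libraries and 797, 811 and 789 CPM in vehicle libraries. The E2 libraries were all above vehicle and the BMP2 libraries all below it. The rise with E2 was 3.65% (log2 fold change 0.052 ± 0.017, adjusted p = 0.00994), and the difference with BMP2 missed the threshold (log2 fold change -0.035 ± 0.017, adjusted p = 0.163).

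The 3 c-ring genes did not change alike. Atp5g3, whose window with an ERR motif is printed above, had 215, 216 and 221 CPM in BMP2 libraries, 236, 237 and 242 CPM in E2 libraries and 225, 222 and 220.5 CPM in vehicle libraries. The E2 libraries were above all others. It was higher with E2 (log2 fold change 0.10 ± 0.021, adjusted p = 6.30e-05) and did not pass with BMP2 (log2 fold change -0.034 ± 0.021, adjusted p = 0.332). Atp5g2 was lower with BMP2 (log2 fold change -0.12 ± 0.022, adjusted p = 1.10e-05) and with E2 (log2 fold change -0.086 ± 0.022, adjusted p = 0.00109). Atp5g1 was lower with E2 (log2 fold change -0.10 ± 0.029, adjusted p = 0.00339), though not without E2 replicate 3 (log2 fold change -0.078, adjusted p = 0.0638). With BMP2 it had log2 fold change -0.061 ± 0.029, adjusted p = 0.156, which passed only with the length and GC trend removed (log2 fold change -0.075, adjusted p = 0.0451).

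Of the rotor and stalk, Atp5c1, the gamma subunit of the central shaft, was lower with BMP2 (log2 fold change -0.12 ± 0.021, adjusted p = 1.46e-06) and had log2 fold change -0.050 ± 0.021 with E2 (adjusted p = 0.0572). With E2 it passed with a replicate block (log2 fold change -0.050, adjusted p = 0.0363) and with the length and GC trend removed (log2 fold change -0.051, adjusted p = 0.0222). Atp5e, the epsilon subunit, was lower with BMP2 (log2 fold change -0.14 ± 0.028, adjusted p = 7.42e-05) and with E2 (log2 fold change -0.088 ± 0.028, adjusted p = 0.00886). The E2 call ended at adjusted p = 0.0632 without E2 replicate 2. Atp5h, a peripheral stalk subunit, was lower with BMP2 and E2, at log2 fold changes of -0.12 with BMP2 (adjusted p = 4.34e-05) and -0.12 with E2 (adjusted p = 1.95e-05). A near copy matches 33.96% of the Atp5h transcript. Atp5f1 and Atp5o, which are also stalk subunits, were lower with BMP2 (log2 fold change -0.071, adjusted p = 0.00435 and -0.10, adjusted p = 4.17e-04) and E2 (-0.058, adjusted p = 0.0117 and -0.070, adjusted p = 0.0075). The E2 call of Atp5f1 ended at adjusted p = 0.11 without E2 replicate 1 and 0.0522 without E2 replicate 2. The small membrane subunits Atp5l and Atp5k were lower with BMP2 (-0.12, adjusted p = 5.24e-04 and -0.11, adjusted p = 0.0331) and E2 (-0.083, adjusted p = 0.0119 and -0.12, adjusted p = 0.00782). The E2 call of Atp5l ended at adjusted p = 0.0543 without vehicle replicate 2 and 0.0639 without E2 replicate 1, that of Atp5k at adjusted p = 0.345 with the length and GC trend removed, 0.075 without vehicle replicate 2 and 0.0526 without E2 replicate 1, and the BMP2 call of Atp5k at adjusted p = 0.0979 in DESeq2, 0.213 with the length and GC trend removed, 0.0837 without BMP2 replicate 1, 0.119 without BMP2 replicate 2, 0.0558 without BMP2 replicate 3, 0.0847 without vehicle replicate 1 and 0.191 without vehicle replicate 2. Atp5d, the delta subunit, was lower with E2 (log2 fold change -0.11 ± 0.032, adjusted p = 0.00392), though not without E2 replicate 3 (log2 fold change -0.083, adjusted p = 0.0717) or with the length and GC trend removed (log2 fold change -0.047, adjusted p = 0.233). Atp5a1, the alpha subunit and partner of Atp5b in the catalytic head, had log2 fold changes of -0.019 ± 0.017 with BMP2 and 0.0046 ± 0.017 with E2, neither past the threshold.

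**Figure D4:**
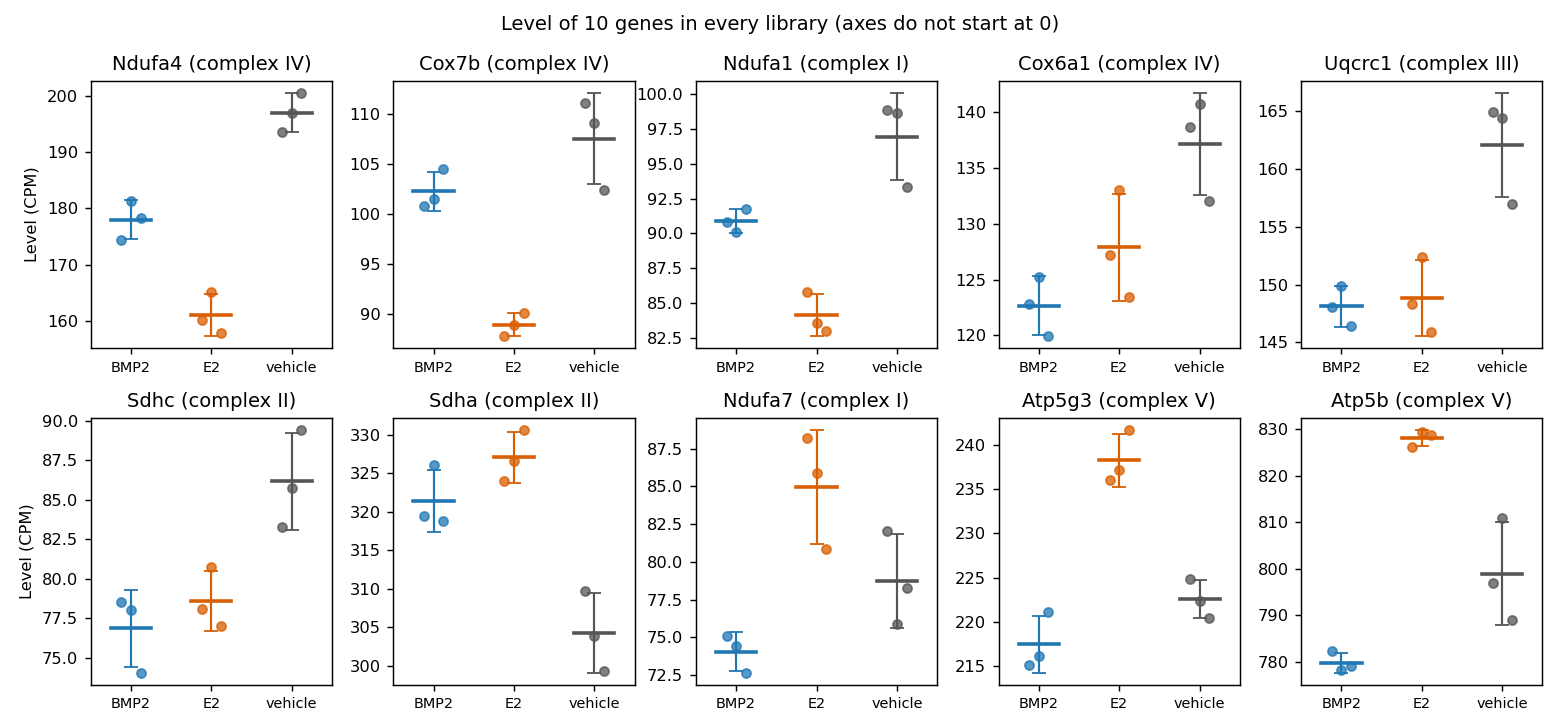
Level in CPM of 10 genes in every library of the BMP2, E2 and vehicle groups; points are libraries, bars are means with SD (n = 3), and the axes do not start at 0. Ndufa4, Cox7b, Ndufa1, Cox6a1, Uqcrc1 and Sdhc are highest with vehicle, Sdha is lowest with vehicle, and Ndufa7, Atp5g3 and Atp5b are highest with E2.

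Among the 4 genes related by symbol, Cox7a2l, a factor that joins complexes III and IV into supercomplexes, was lower with E2 (log2 fold change -0.13 ± 0.020, adjusted p = 3.39e-08) and with BMP2 (log2 fold change -0.074 ± 0.020, adjusted p = 0.00458). The BMP2 call of Cox7a2l was lost without BMP2 replicate 2 (log2 fold change -0.057, adjusted p = 0.0834). Atp5sl was higher with E2 (log2 fold change 0.15 ± 0.050, adjusted p = 0.0152) but not without vehicle replicate 3 (log2 fold change 0.11, adjusted p = 0.128). Atp5s and Ndufa4l2, the hypoxia-induced relative of Ndufa4, passed no test. Ndufa4l2 had 31, 21 and 17 reads with BMP2, 23, 14 and 32 with E2 and 22, 30 and 19 with vehicle.

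BMP2 and E2 libraries were also compared directly, without vehicle. Of the 82 genes, 7 were higher and 8 lower in BMP2 than in E2 libraries, where 14.1% of all genes were higher and 14% were lower. The median log2 fold change was -0.019. The genes higher in BMP2 were Cox7b, Ndufa4, Ndufa1, Cox6b1, Ndufb11, Atp5d and Cox7a2l, and those lower were Ndufa7, Atp5g3, Atp5b, Atp5c1, Cox6c, Sdhb, Ndufs1 and Atp5sl. With the trend on length and GC content removed, 7 were higher and 14 lower, where 16.3% of all genes were higher and 13.1% lower in that fit. Thus the share of the 82 genes called lower was below that of all genes in the first fit and above it in the second, while the share called higher was below it in both. Without BMP2 replicate 1 the counts were 4 and 5, where 11.9% of all genes were higher and 12% lower.

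Cox7b led the genes higher in BMP2 (log2 fold change 0.20 ± 0.029, adjusted p = 1.89e-09), followed by Ndufa4 (log2 fold change 0.14 ± 0.023, adjusted p = 6.28e-08) and Ndufa1 (log2 fold change 0.11 ± 0.029, adjusted p = 0.00147). In each of the 3 every BMP2 library was above every E2 library. Ndufa7 led the lower ones (log2 fold change -0.20 ± 0.031, adjusted p = 5.75e-08), and Atp5g3 (log2 fold change -0.13 ± 0.021, adjusted p = 7.85e-08), Atp5b (log2 fold change -0.087 ± 0.017, adjusted p = 7.79e-06) and Atp5c1 (log2 fold change -0.073 ± 0.021, adjusted p = 0.0037) were lower as well, again with no overlap. These 7 genes kept their calls under every setting run. Cox4i2 (-0.51 ± 0.23, adjusted p = 0.0914), Cox7b2 (-0.22 ± 0.15), Cox8c (0.62 ± 0.34) and Cox7a1 (0.16 ± 0.11) had larger or like log2 fold changes on few reads and did not pass. Cox4i2 passed without E2 replicate 2 (log2 fold change -0.67, adjusted p = 0.0375).

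The other 8 calls of this comparison depended on the libraries included. Cox6b1 (log2 fold change 0.085 ± 0.027, adjusted p = 0.0103) missed the threshold at adjusted p = 0.0573 without BMP2 replicate 1 and 0.103 without E2 replicate 1. Ndufb11 (log2 fold change 0.077 ± 0.023, adjusted p = 0.00597) missed it at adjusted p = 0.0508 without BMP2 replicate 1, and Cox6c (log2 fold change -0.071 ± 0.022, adjusted p = 0.00709) at adjusted p = 0.0507 without BMP2 replicate 2 and 0.0504 without E2 replicate 2. Atp5d (log2 fold change 0.092 ± 0.032, adjusted p = 0.0185) did so at adjusted p = 0.0898 in DESeq2, 0.265 with the length and GC trend removed, 0.465 without BMP2 replicate 2 and 0.178 without E2 replicate 3. Cox7a2l (log2 fold change 0.055 ± 0.020, adjusted p = 0.0299) did so at adjusted p = 0.0532 in DESeq2, 0.236 without BMP2 replicate 1, 0.0805 without BMP2 replicate 3, 0.125 without E2 replicate 1 and 0.104 without E2 replicate 2. For Sdhb (log2 fold change -0.068 ± 0.026, adjusted p = 0.0334) the values were adjusted p = 0.0874 in DESeq2, 0.0605 without BMP2 replicate 1, 0.14 without BMP2 replicate 2, 0.094 without E2 replicate 1 and 0.277 without E2 replicate 2. For Ndufs1, a large core subunit with several iron-sulfur clusters (log2 fold change -0.065 ± 0.023, adjusted p = 0.0202), they were adjusted p = 0.102 with the length and GC trend removed, 0.122 without BMP2 replicate 1, 0.101 without E2 replicate 1 and 0.0576 without E2 replicate 2. For Atp5sl (log2 fold change -0.12 ± 0.050, adjusted p = 0.0484) they were adjusted p = 0.113 in DESeq2, 0.0639 with no filter on low counts, 0.0948 without BMP2 replicate 1, 0.0975 without BMP2 replicate 2, 0.0885 without BMP2 replicate 3, 0.113 without E2 replicate 1, 0.105 without E2 replicate 2 and 0.064 without E2 replicate 3.

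**Figure D5:**
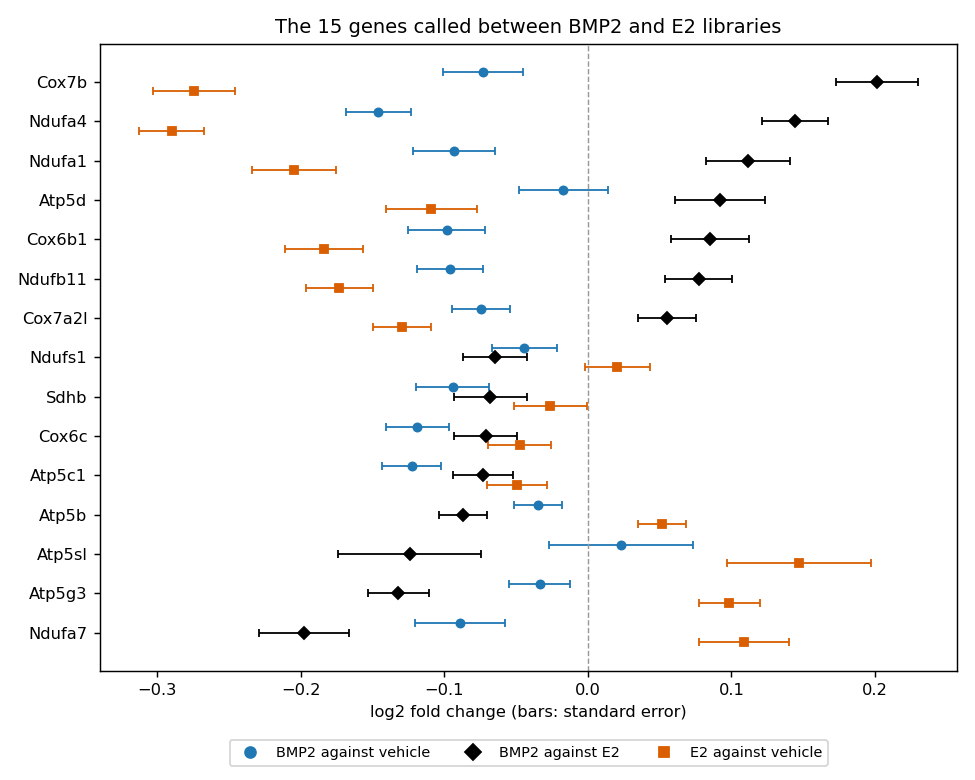
log2 fold change with its standard error of the 15 genes called between BMP2 and E2 libraries, with the same genes' fold changes against vehicle for BMP2 and for E2. Black diamonds right of 0 are genes higher in BMP2 than in E2 libraries, led by Cox7b, and those left of 0 are lower, led by Ndufa7.

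Other genes of the pathway were counted in lists, whose differences from the 82 genes were not tested. The counts are those of the main fit, and several of the calls in them ended under other settings. The shares to set beside the counts are 6.84% higher and 6.85% lower for BMP2, and 15.8% higher and 16.5% lower for E2, each over every gene tested. Of 8 subunits and carriers outside the symbol rule, 2 were lower with BMP2 and 1 with E2, with median log2 fold changes of -0.065 with BMP2 and -0.040 with E2. Atpif1, the inhibitor of the ATP synthase, was lower with BMP2 (log2 fold change -0.14, adjusted p = 1.98e-06) and E2 (-0.16, adjusted p = 9.08e-09), and Cycs, cytochrome c, was lower with BMP2 (-0.10, adjusted p = 0.0156), a call that ended at adjusted p = 0.0678 in DESeq2, 0.255 without BMP2 replicate 2, 0.0732 without vehicle replicate 1 and 0.0539 without vehicle replicate 3. Of 13 assembly factors of complex I, 1 was higher and 1 lower with BMP2, and 3 were higher and 1 lower with E2. Ndufaf4 was higher with both (log2 fold change 0.16, adjusted p = 0.0196 with BMP2 and 0.21, adjusted p = 5.33e-04 with E2), and Ecsit was lower with both (-0.17, adjusted p = 0.00708 with BMP2 and -0.15, adjusted p = 0.0127 with E2). The BMP2 call of Ndufaf4 ended at adjusted p = 0.0787 in DESeq2, 0.165 without BMP2 replicate 3 and 0.191 without vehicle replicate 1, the BMP2 call of Ecsit at adjusted p = 0.0868 without BMP2 replicate 1 and its E2 call at adjusted p = 0.0808 with the length and GC trend removed, 0.0599 without vehicle replicate 1 and 0.0786 without E2 replicate 3. Of 24 assembly factors of complexes II to V, 3 were higher and 1 lower with BMP2 and 2 higher and 2 lower with E2, and their median log2 fold changes were -0.0011 with BMP2 and -0.0025 with E2. With BMP2 the higher ones were Sco1, Sdhaf2 and Coa5 and the lower one was Cox16. All missed the threshold in DESeq2, at adjusted p = 0.05004, 0.06085, 0.07133 and 0.08039, and each in some fits with a library left out.

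Among 10 genes of coenzyme Q synthesis, Adck3 was higher with BMP2 (log2 fold change 0.14, adjusted p = 1.84e-04) and with E2 (0.42, adjusted p = 1.29e-27). Coq5 was higher with E2 (0.20, adjusted p = 2.34e-04), and none was lower. Of 21 genes of the citrate cycle and pyruvate dehydrogenase, 1 was higher and 3 lower with BMP2, and 5 were higher and 4 lower with E2. Cs, citrate synthase, was lower with BMP2 (-0.10, adjusted p = 2.63e-04). Idh3a and Fh1 were higher with E2 (0.14, adjusted p = 2.03e-06 and 0.14, adjusted p = 1.67e-06). Pcx, pyruvate carboxylase, was lower with both (-0.22, adjusted p = 4.59e-11 with BMP2 and -0.24, adjusted p = 3.60e-13 with E2). Of 15 genes of mitochondrial fatty acid oxidation, none was higher and 2 lower with BMP2, and 6 were higher and 2 lower with E2. Echs1 had log2 fold changes of -0.084, adjusted p = 0.00387 with BMP2 and 0.15, adjusted p = 1.22e-08 with E2. The BMP2 call of Echs1 ended at adjusted p = 0.0509 without BMP2 replicate 2.

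Of 47 proteins of the large mitochondrial ribosome subunit, 5 were lower with BMP2 and 4 with E2, and of 30 of the small subunit 2 were lower with each, while none was higher. In the small subunit, the BMP2 call of Mrps12 ended at adjusted p = 0.06085 in DESeq2, and that of Mrps16 at 0.0535 without BMP2 replicate 1. Among genes of the next lists, DESeq2 lost the BMP2 calls of Hspa9 (import), Gapdh and Pgam1 (glycolysis), at adjusted p = 0.0578, 0.0717 and 0.0664. Of 23 import genes, 2 were higher and 5 lower with BMP2, and 4 higher and 3 lower with E2, where the chaperone Hspd1 was higher (log2 fold change 0.17 ± 0.018, adjusted p = 1.92e-14). Of 16 genes of cristae and inner membrane carriers, none was higher and 4 lower with BMP2, and 3 were higher and 4 lower with E2. Of 13 mitochondrial antioxidant genes, none was higher and 4 lower with BMP2, and 1 was higher and 6 lower with E2 (median log2 fold change -0.076). Ucp2, an inner membrane carrier, fell with both (-0.11, adjusted p = 9.41e-05 with BMP2 and -0.31, adjusted p = 8.41e-26 with E2). Of 10 genes of mitochondrial DNA maintenance, none was called with BMP2 and 2 were lower with E2. Of 21 glycolysis genes, none was higher and 5 lower with BMP2, and 5 were higher and 3 lower with E2, where Hk1, a hexokinase, had log2 fold change 0.47 ± 0.037, adjusted p = 3.35e-23.

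Of 16 regulators of mitochondrial genes, none was higher and 2 lower with BMP2, and 3 were higher and 3 lower with E2, near the shares of all genes, 15.8% and 16.5%. Those higher with E2 were Nrip1, Pprc1 and Myc, and those lower were Tfb1m, Ppargc1a and Esrra. Nrip1, a nuclear receptor corepressor known to restrain oxidative genes, had 48.3, 46.8 and 48.7 CPM in BMP2 libraries, 72.99, 73.5 and 71.7 CPM in E2 libraries and 48.2, 45.8 and 44.3 CPM in vehicle libraries. The E2 libraries stood above all others, and the change with E2 was 0.66 ± 0.035 on the log2 scale (adjusted p = 2.69e-37). Ppargc1a, the coactivator PGC-1α, was lower with E2 (log2 fold change -0.35 ± 0.094, adjusted p = 0.00135), as was Esrra, the receptor ERRα (log2 fold change -0.25 ± 0.069, adjusted p = 0.00179). With BMP2 these were at -0.014 ± 0.088 and -0.16 ± 0.067, neither past the threshold. Tfb1m, a mitochondrial rRNA methyltransferase, was lower with BMP2 (log2 fold change -0.21 ± 0.048, adjusted p = 7.08e-04) and E2 (log2 fold change -0.20 ± 0.049, adjusted p = 3.46e-04). Myc, a transcription factor, was lower with BMP2 (-0.40, adjusted p = 2.08e-10) and higher with E2 (0.14, adjusted p = 0.0168). Its E2 call ended at adjusted p = 0.052 without vehicle replicate 1, 0.0841 without vehicle replicate 2 and 0.0575 without E2 replicate 2.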

How the data were processed

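RNA was sequenced from cultured embryonic mouse ovaries in 9 libraries, 3 for each of BMP2, E2 and vehicle, and samples were grouped by their titles. The authors deposited a raw count of reads per gene symbol for each library, with 23420 genes and 5 summary rows per file; TopHat2, HTSeq, DESeq2 and the build mm10 are named in the submitters' processing notes, with versions not given in the sources used here. The summary rows stayed out of library sizes and tests, and the reads they list as lying in no gene came to 13.58 to 14.8% per library. The share in no gene is given again in the closing section.

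Counts were filtered with filterByExpr (minimum count 10, minimum total 15), scaled by TMM and tested with edgeR 4.0.16's quasi-likelihood test (R 4.3.3), fitted on all 16360 genes and 9 libraries with group means and 6 residual degrees of freedom. P-values were adjusted over all genes by the Benjamini-Hochberg method and called at 0.05. CPM are counts per effective library size, and RPKM divides by the union of exons in GENCODE's basic annotation of GRCm38. Promoter sequences are RefSeq's. The procedure was tested on simulated data.

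The 84 genes, their grouping into complexes and the other lists were chosen with earlier results of these data known. Named are up to 4 called genes per complex, direction and comparison with the smallest p, the 3 highest and lowest fold changes, complex II, and genes with a tissue-restricted or paralogous partner. Up to 3 called genes per direction were eligible in the other lists. Ndufs3, Ndufs8, Uqcrh, Uqcrfs1, Cox5b, Atp5a1, Atp5f1, Atp5k, Atp5l, Atp5o and the remaining accessory subunits were named after their values were seen. Alternatives were DESeq2 1.42.0, other scalings, filters and thresholds, the 2 groups alone, a replicate block, removal of the trend on length and GC content, library sizes without the 84 genes, 1 strand for motifs, and each library left out. Placing genes by symbol alone and leaving out genes whose transcript is matched by another gene, or whose exons overlap one, were chosen after seeing the data.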

Additional observations from a re-analysis of the deposited data

Results flagged for a closer look

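Reads that HTSeq placed in no gene lie outside the comparisons above and differed between groups. They made up 14.63% ± 0.146 of all reads listed in the E2 libraries, 13.64% ± 0.0603 in the BMP2 libraries and 13.76% ± 0.163 in the vehicle libraries (SD, n = 3 each). The E2 libraries, at 14.53 to 14.8%, were all above the other 6. Its part in the results for E2 was not tested.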

How the results depend on the processing

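Over 449 gene and comparison pairs, 6274 values under other settings were computed. Of these, 5811 kept their side of the threshold, where a change of sign was not counted if neither fit made a call. Another 392 no longer passed, 69 newly passed and 2 turned round with a call in either fit. Both of the last were with E2 and the trend on length and GC content removed, Cox4i1 at 0.0050 and Cox8a at 0.073 on the log2 scale. In that fit, whose shares over all genes are given above, 2 of the 84 genes were higher with BMP2 and 14 were lower in BMP2 than in E2 libraries. Its median log2 fold change was -0.056 with BMP2 and -0.046 with E2. At an adjusted p under 0.10, 2 were also higher with BMP2, where 9.29% of all genes were. At an adjusted p under 0.01, 4 were higher and 5 lower between BMP2 and E2, where 10.3% and 10.4% of all genes were. With library size alone, the log2 ratio of summed CPM of BMP2 over E2 was 0.0065 in complex I, -0.00084 in complex III and -0.032 in complex V, against -0.0047, -0.012 and -0.043 with TMM. Leaving out each library gave 26 to 41 genes lower with BMP2. The fewest were without BMP2 replicate 1, where 4.99% of all genes were lower, and the most without vehicle replicate 3, where 6.37% were. With E2, leaving out each library gave 30 to 38 lower and 4 to 6 higher. The fewest lower were without E2 replicate 3, where 13.9% of all genes were lower. Between BMP2 and E2 libraries, 4 to 7 were higher and 5 to 8 lower in BMP2. The fewest were without BMP2 replicate 1, where 11.9% of all genes were higher and 12% lower. DESeq2 called 1 higher and 29 lower with BMP2, 5 and 31 with E2, and 5 and 6 between BMP2 and E2. Without genes whose transcript is over 20% matched by another gene, at the same place or elsewhere, 1 was higher and 27 lower with BMP2. With E2 these were 6 and 29. Without overlapping genes, they were 1 and 30 with BMP2 and 6 and 31 with E2. Same-numbered libraries showed little shared deviation (r from -0.031 to 0.027). Such values cannot settle whether the numbers pair the libraries, and the labels do not say what the numbers share. With a replicate block 1 was higher and 43 lower with BMP2, 6 and 41 with E2, and 7 and 10 between BMP2 and E2. The shares over all genes were then 7.65% higher and 7.7% lower with BMP2, 16.5% and 17.2% with E2, and 14.9% each between BMP2 and E2. On 1 strand alone, the NRF1 motif was in 6.67% of the 75 windows against 1.36% of all windows, and the YY1 motif in 12% against 0.977%. The SP1 motif was then in 6.67% against 6.05%, the ETS motif in 1.33% against 2.11% and the ERR motif in 0% against 0.24%. So the higher ETS and ERR shares of these genes were seen only with both strands searched. The cause of these shifts was not tested. The common biological coefficient of variation in edgeR, the spread between libraries beyond counting noise, was 1.87%. Changes of a few percent were called, while genes with few reads, such as Cox4i2 and Cox8c, had standard errors too large for that.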
